A study of Mus musculus with 9 samples.

Results

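Voltage-gated and related ion channel genes were examined in forebrain tissue of female mouse embryos at E16 to E17. They were taken by symbol: sodium channels (*Scn*), calcium channels (*Cacna*, *Cacnb*, *Cacng*), potassium channels (*Kcn*) and the hyperpolarization-activated cation channels (*Hcn*), with a summed count of at least 90 over the embryos. Of 143 symbols that matched, 4 opposite-strand names were left out and 15 lay under that sum, so that 124 of the 55401 genes in the table were kept. The members closest to the threshold were *Cacna1s* with 90 reads in all, *Cacna1f* with 91 and *Scn7a* with 96, and the highest genes under it were *Kcnk4* with 58 and *Kcnmb1* with 49. The groups were 5 WT embryos (*Npas3*+/+ littermates, WT 5, 15, 16, 41 and 43) and 4 HET embryos (*Npas3*+/-, HET 5, 6, 7 and 24), from matings of constitutive heterozygotes on the C57BL/6J background with each other or with C57BL/6J mice. HET embryos lacked 1 *Npas3* allele in every cell, and no Cre or transgene was involved. No treatment was given. The labels do not say how many litters the samples came from, so p-values measure the spread between these samples.

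Ion channels set how a cell responds to voltage and how it handles potassium and calcium. Each channel is built around pore-forming alpha subunits, and auxiliary subunits tune their gating or carry them to the membrane. In the embryonic forebrain, young neurons acquire sodium, calcium and delayed rectifier potassium channels while they migrate, radial glia and astrocyte precursors express inward rectifiers, and the choroid plexus epithelium carries its own potassium channels in the membrane that faces the cerebrospinal fluid. NPAS3 is a transcription factor of the bHLH-PAS family.

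Embryos held between 42640218 and 62830060 counts. *Npas3* itself was at 29.6 to 40.8 CPM (read counts scaled to library size, with TMM factors) in WT and 27.8 to 34.1 in HET, so the groups overlapped. The labels name astrocytes as the cell type and forebrain as the tissue. The neuronal *Tubb3* was at 1570 to 1880 CPM, and the samples are described as forebrain here. Of the 8 astroglial markers, *Slc1a3* at 247 to 319 CPM, *Aldoc* at 159 to 253 and *Slc1a2* at 82.7 to 185, which progenitors or neurons can also express, had many reads. *Aldh1l1* was at 2.79 to 31.7 and *Gfap* at 4.23 to 12.5, and *Aqp4* at 0.163 to 2.02, *S100b* at 0.0883 to 0.326 and *Gjb6* at 0 to 0.196 were low. *Ttr*, the transthyretin gene of the choroid plexus, was at 2130 to 2630 CPM in WT 15, WT 16 and WT 41, at 466 in HET 24 and at 0.769 to 11.7 in the remaining embryos. RNA of choroid plexus markers thus differed between libraries of 1 group. Results that it touches are also given from a fit with a score over these markers as covariate and from the 5 embryos with *Ttr* under 100 CPM (WT 5, WT 43, HET 5, HET 6 and HET 7).

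The promoters of 5 members that the results turn on and that RefSeq lists are shown first (build GRCm38.p6, 250 bases before to 50 after the start, on the strand of the gene). Capitals mark the E-box motif CANNTG, the kind of hexamer that bHLH factors bind, which reads the same on both strands. The first 3 belong to genes whose WT and HET values did not overlap, and the last 2 to genes that followed the choroid plexus markers. The windows lie at chr1:172340960-172341259 (plus strand) for *Kcnj10*, chrX:142306149-142306448 (minus strand) for *Kcne1l*, chr12:11150793-11151092 (minus strand) for *Kcns3*, chr1:87394680-87394979 (minus strand) for *Kcnj13* and chr16:92292139-92292438 (plus strand) for *Kcne2*.
Kcnj10: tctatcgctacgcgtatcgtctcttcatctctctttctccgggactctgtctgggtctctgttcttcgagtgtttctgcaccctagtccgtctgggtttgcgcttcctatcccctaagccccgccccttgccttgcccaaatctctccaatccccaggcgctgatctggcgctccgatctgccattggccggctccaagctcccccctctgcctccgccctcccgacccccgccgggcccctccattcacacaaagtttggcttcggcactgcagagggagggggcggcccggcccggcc
Kcne1l: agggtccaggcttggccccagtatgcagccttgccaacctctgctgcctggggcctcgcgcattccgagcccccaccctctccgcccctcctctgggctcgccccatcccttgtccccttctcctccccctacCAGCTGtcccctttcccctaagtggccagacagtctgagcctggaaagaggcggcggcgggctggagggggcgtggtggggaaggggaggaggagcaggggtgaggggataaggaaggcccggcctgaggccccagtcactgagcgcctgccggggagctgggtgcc
Kcns3: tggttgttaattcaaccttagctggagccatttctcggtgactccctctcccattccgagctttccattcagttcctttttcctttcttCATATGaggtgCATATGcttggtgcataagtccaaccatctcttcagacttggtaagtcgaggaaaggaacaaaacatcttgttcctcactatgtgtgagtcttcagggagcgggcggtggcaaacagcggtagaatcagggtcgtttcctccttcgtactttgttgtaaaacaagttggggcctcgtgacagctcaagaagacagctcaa
Kcnj13: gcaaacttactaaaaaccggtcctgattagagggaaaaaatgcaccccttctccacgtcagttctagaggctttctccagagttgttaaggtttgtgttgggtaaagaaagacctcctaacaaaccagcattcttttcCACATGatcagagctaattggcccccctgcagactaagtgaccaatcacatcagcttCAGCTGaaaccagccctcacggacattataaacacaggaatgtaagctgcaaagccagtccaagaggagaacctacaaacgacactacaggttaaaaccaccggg
Kcne2: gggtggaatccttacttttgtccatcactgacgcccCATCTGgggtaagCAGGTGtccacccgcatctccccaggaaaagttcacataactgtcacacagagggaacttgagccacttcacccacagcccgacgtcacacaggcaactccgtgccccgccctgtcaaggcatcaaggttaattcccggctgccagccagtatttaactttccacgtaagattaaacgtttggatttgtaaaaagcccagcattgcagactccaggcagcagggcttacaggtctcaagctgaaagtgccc
The *Kcnj10* window holds no such hexamer. *Kcne1l* has 1, CAGCTG, which begins 117 bases before the start. *Kcns3* has 2 copies of CATATG, at 161 and 150 bases before it. *Kcnj13* holds CACATG at 112 bases and CAGCTG at 55 bases, and *Kcne2* holds CATCTG at 214 bases and CAGGTG at 201 bases. Such a hexamer was found in 71.0% of the 124 windows listed for 88 of the channel genes and in 72.3% of all 32817 RefSeq windows of this length, so its presence did not set the channel genes apart. A match is a description of these letters and not a binding site. Distances are from the RefSeq start of the window shown. In the annotation used for coordinates, *Kcns3* and *Kcne1l* begin upstream of that start, and both *Kcns3* hexamers lie within the annotated gene. RefSeq lists 2 windows for each of *Kcns3* and *Kcne2*, and the one nearest the annotated gene start is shown.

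To ask which channel genes differed with loss of 1 *Npas3* allele, HET was compared with WT across all genes. Only *Kcnj10* passed edgeR's quasi-likelihood test among the 123 channel genes tested. *Kcnj10*, which encodes the inward rectifier Kir4.1 that glia use to take up potassium, fell to 0.45 times the WT level. The share of channel genes called at an adjusted p under 0.05 was 0.813%, against 0.14% of the 17818 genes tested (25 genes). With DESeq2 the called members were 3, *Kcnj10*, *Kcne1l* and *Kcng1*, or 2.44% against 0.483% of all genes. Without adjustment, 9 members were higher in HET at p under 0.05 (7.32%, background 2.32%) and 6 were lower (4.88%, background 3.09%). The members whose groups did not overlap were *Kcng1* and *Kcns3*, higher in HET (1.63%, background 0.786%), and *Kcnj10* and *Kcne1l*, lower in HET (1.63%, background 1.07%).

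*Kcnj10* (ENSMUSG00000044708, chromosome 1 from 172341210 to 172374085, plus strand) was the member with the smallest p. It was at 62.7, 47.7, 43.3, 54.3 and 67.9 CPM in WT 5, 15, 16, 41 and 43, and at 27.3, 27.3, 27.3 and 17.3 CPM in HET 5, 6, 7 and 24. The groups did not overlap, and HET 24 stood below the other HET embryos, which were nearly equal. The WT mean was 55.2 ± 10.2 CPM (SD, n = 5) and the HET mean 24.8 ± 4.98 CPM (SD, n = 4), which gave a log2 fold change of -1.15 (SE 0.17, adjusted p = 0.0229 by edgeR). These values rest on 904 to 3445 counts per embryo, and no exon of another gene overlaps the gene. Adding the choroid plexus covariate gave a log2 fold change of -1.32 (adjusted p = 0.000519) and the embryos with low *Ttr* gave -1.26 (adjusted p = 0.00518). Leaving out 1 embryo gave log2 fold changes from -1.23 to -1.01. The adjusted p passed the threshold without WT 15, WT 16 or HET 24, and was 0.0577 without WT 5, 0.0662 without WT 41, 0.0516 without WT 43, 0.0757 without HET 5, 0.0942 without HET 6 and 0.0518 without HET 7.

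The list of astroglial markers was mixed beside *Kcnj10*. Of its 8 genes 6 were tested and none was called, 2 lay above 0 and 4 below, and the median log2 fold change was -0.10. At an unadjusted p under 0.05, edgeR's test gave 2 of the 6, both lower, where the background is 3.09% of all genes tested. *Aldh1l1*, a folate enzyme of astrocytes, was at 22.1 CPM on average in WT and 9.89 in HET (log2 fold change -1.16, SE 0.42, adjusted p = 0.904). The water channel gene *Aqp4* was at 1.48 CPM in WT and 0.474 in HET (log2 fold change -1.63, SE 0.44, adjusted p = 0.555). The glutamate transporter *Slc1a3*, the list's gene with the most reads, was at 285 and 263 CPM (log2 fold change -0.12, SE 0.07). *Slc1a2* was at 145 CPM in WT and 138 in HET (-0.07, SE 0.21). The 2 genes above 0 were *Gfap*, at 8.58 CPM in WT and 9.06 in HET (0.08, SE 0.25), and *Aldoc*, at 188 and 209 (0.15, SE 0.11). The summed level of the 8 genes was 590 to 687 CPM in WT and 584 to 656 in HET. Most of it came from *Slc1a3*, *Aldoc* and *Slc1a2*, which progenitors or neurons can also express, so it says little about the markers with few reads. The part of the astroglial markers in the *Kcnj10* result was not tested. In bulk tissue, fewer cells of a type and less RNA per cell cannot be told apart.

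**Figure D1:**
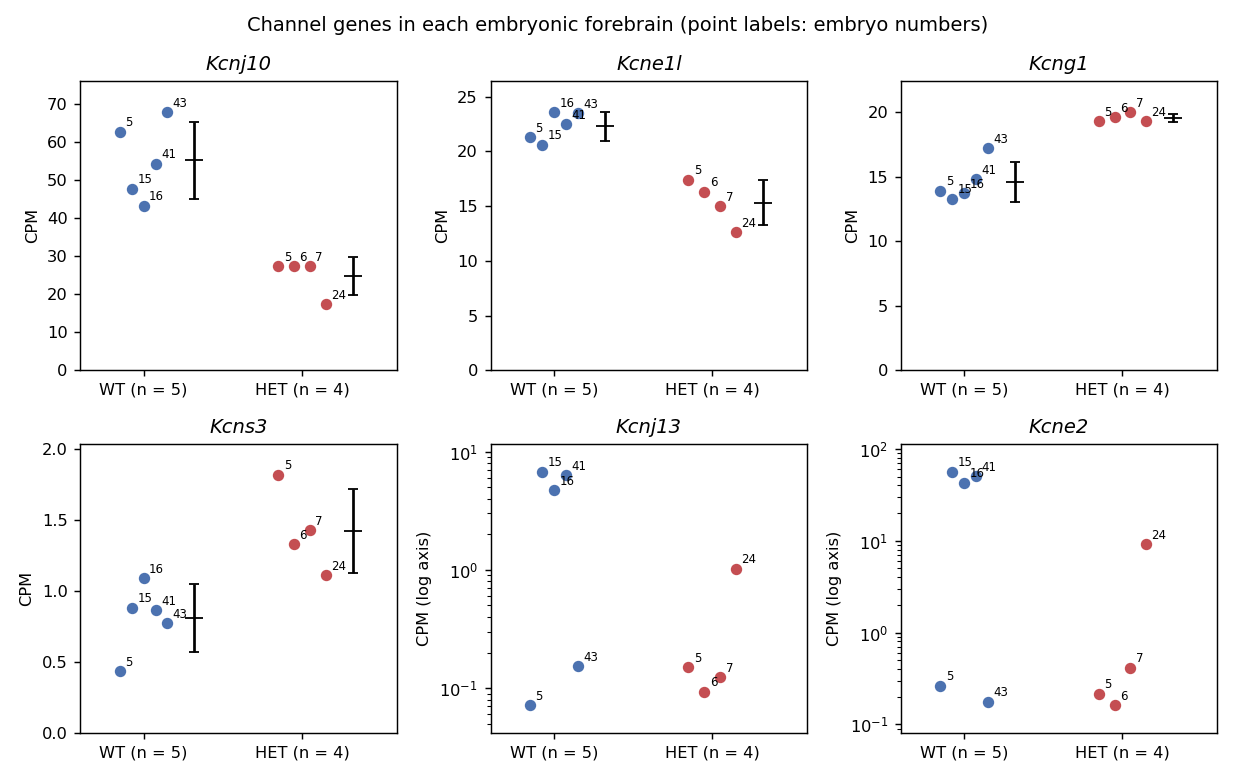
Each panel plots the CPM of 1 channel gene in every embryo (blue, WT, n = 5, red, HET, n = 4), with embryo numbers beside the points. In the first 4 panels the axis is linear and the bar is the mean with its SD, and in the last 2 the axis is logarithmic and no mean is drawn. *Kcnj10* and *Kcne1l* were lower and *Kcng1* and *Kcns3* higher in every HET embryo, while *Kcnj13* and *Kcne2* separated WT 15, WT 16 and WT 41 from WT 5 and WT 43.

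*Kcne1l* encodes a single-pass accessory subunit of voltage-gated potassium channels (ENSMUSG00000090122, chromosome X from 142304752 to 142306294, minus strand). Its levels were 21.3, 20.6, 23.6, 22.5 and 23.5 CPM in WT 5, 15, 16, 41 and 43 and 17.4, 16.3, 15 and 12.6 CPM in HET 5, 6, 7 and 24. The groups did not overlap, and the WT embryos spanned a narrow range. The log2 fold change was -0.54 (SE 0.10), with an adjusted p of 0.0982 by edgeR and 0.000144 by DESeq2, so the call depended on the tool.

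*Kcng1* encodes a modifier subunit that forms no channel alone and joins pore-forming delayed rectifier subunits (ENSMUSG00000074575, chromosome 2 from 168260117 to 168281736, minus strand). It was at 13.9, 13.3, 13.7, 14.8 and 17.2 CPM in WT 5, 15, 16, 41 and 43, and at 19.3, 19.6, 20 and 19.3 CPM in HET 5, 6, 7 and 24. The HET embryos were within 1 CPM of each other and above WT 43, the highest WT embryo. The log2 fold change was 0.42 (SE 0.09, adjusted p = 0.193 by edgeR and 0.00101 by DESeq2).

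*Kcns3*, which encodes another modifier subunit, was a low-level gene (ENSMUSG00000043673, chromosome 12 from 11090202 to 11151056, minus strand). Its values were 0.433, 0.884, 1.09, 0.866 and 0.772 CPM in the WT embryos in the same order and 1.82, 1.33, 1.43 and 1.11 CPM in the HET embryos. HET 24 was just above WT 16, and counts were only 18 to 84 per embryo. The log2 fold change was 0.81 (SE 0.24, adjusted p = 0.719), and DESeq2 gave an adjusted p of 0.298.

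*Kcnj13* and *Kcne2* had the log2 fold changes farthest from 0 of all members, and values were widely spread within the WT group. *Kcnj13* encodes the inward rectifier Kir7.1 of the choroid plexus and was at 0.0721, 6.76, 4.70, 6.35 and 0.154 CPM in WT 5, 15, 16, 41 and 43 and at 0.151, 0.0931, 0.124 and 1.02 CPM in HET 5, 6, 7 and 24. *Kcne2*, whose product assembles with potassium channels in the same epithelium, was at 0.264, 56.5, 43.1, 50.4 and 0.177 CPM in the WT embryos and at 0.216, 0.163, 0.413 and 9.15 CPM in the HET embryos. Both were high in the embryos with high *Ttr* and intermediate in HET 24, and the groups overlapped. Their log2 fold changes were -3.34 (SE 1.18, adjusted p = 0.896) and -3.57 (SE 1.55, adjusted p = 0.911). In the covariate fit these were -0.42 for *Kcnj13* and 0.44 for *Kcne2*, and *Kcne2* was at 0.28 in the embryos with low *Ttr*, where *Kcnj13* fell under the filter on low counts. All 8 choroid plexus markers were lower in HET by the fitted values (median log2 fold change -2.53, none called), with a summed level of 27.4 to 2927 CPM in WT and 38.1 to 544 in HET. Exons of *Gigyf2* on the opposite strand cover 49.1% of those of *Kcnj13*, and since the sources do not name the strand setting of the count its reads are uncertain.

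Members with an unadjusted p under 0.05 beyond these were spread over several classes, and none passed the adjusted threshold. *Cacng5*, which encodes an auxiliary protein of AMPA receptors, was at 8.41 to 14.8 CPM in WT and 13.9 to 22.3 in HET (log2 fold change 0.54, SE 0.17, adjusted p = 0.788). *Kcna2*, an axonal delayed rectifier, was at 8.43 to 12.9 CPM in WT and 12.5 to 18.7 in HET (0.43, SE 0.15, adjusted p = 0.896). HET 7 held the highest value of both genes, and the groups overlapped in both. *Scn2b*, an adhesion-like sodium channel beta subunit, was at 7.88 to 10.6 CPM in WT and 10.3 to 13.7 in HET (log2 fold change 0.32, SE 0.13, adjusted p = 0.908). *Cacng4*, of the same AMPA receptor auxiliary family as *Cacng5*, was at 107 to 144 CPM in WT and 122 to 155 in HET (log2 fold change 0.23, SE 0.10, adjusted p = 0.911). Others on the higher side included the modifier *Kcng2* and *Kcnn4*, which rested on 6 to 21 counts per embryo. On the lower side, *Kcnmb2*, a beta subunit that inactivates calcium-activated BK channels, was at 2.74 to 7.07 CPM in WT and 2.01 to 4.05 in HET (log2 fold change -0.71, SE 0.26, adjusted p = 0.908). *Kcnj2*, the inward rectifier Kir2.1, was at 4.22 to 6.22 CPM in WT and 4 to 4.81 in HET (log2 fold change -0.34, SE 0.13, adjusted p = 0.908).

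Fitted log2 fold changes lay above 0 for 91 of 123 members (74%), against 48.5% of all genes, with a median of 0.14 for the members and -0.005 for all genes. The individual differences were small, and this count is a description, since members of 1 embryo share its library. The share moved with single embryos. Without HET 7, 73 members lay above 0 (59.3%, median 0.07), without WT 16, 86 of 122 did (median 0.08), and without HET 5, 99 did (median 0.21). With the choroid plexus covariate the count was 101 (median 0.17), and in the embryos with low *Ttr* it was 93 of 120 (median 0.12). Over the 9 fits that each left out 1 embryo, 67 members stayed above 0, 19 stayed below and 37 changed sign. Each fit tested 120 to 123 members, so a few members were not tested in all 9.

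**Figure D2:**
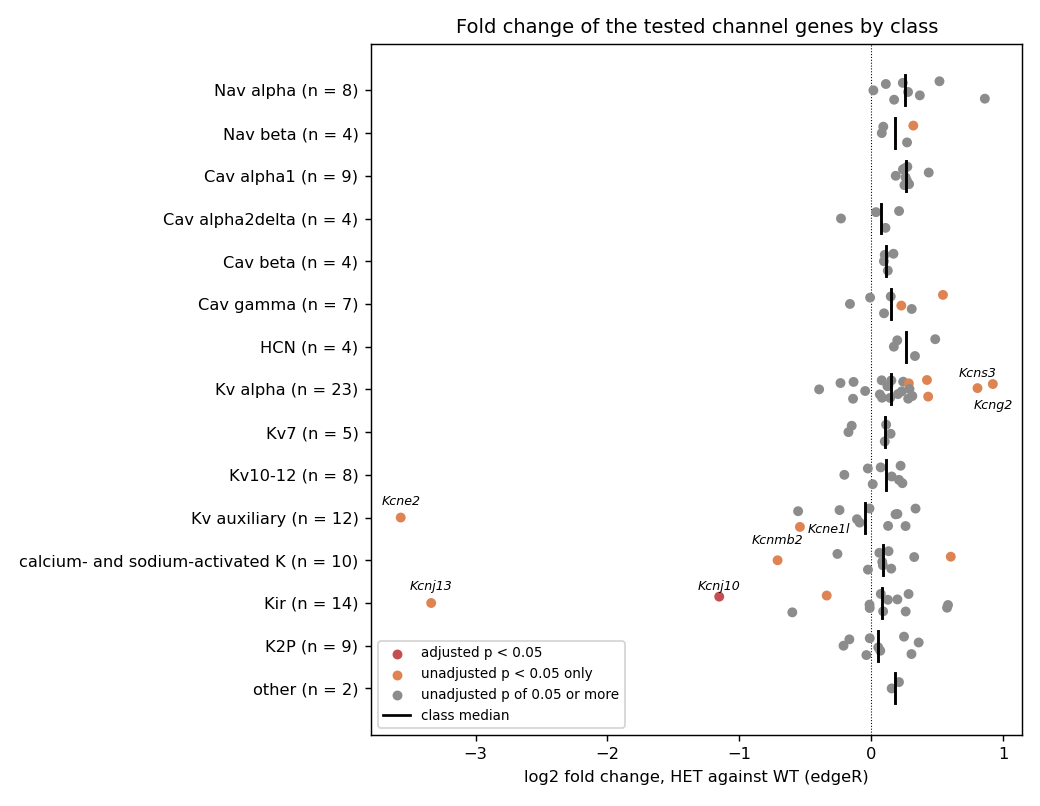
Log2 fold change, HET against WT, of each of the 123 tested channel genes (x axis) by channel class (y axis, with the number tested), where every point is a gene and the black line is the class median. Most class medians lay a little above 0, from -0.05 in the Kv auxiliary class to 0.26 in the sodium channel alpha, calcium channel alpha1 and HCN classes, and *Kcnj10* was the only point at an adjusted p under 0.05.

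Sodium channels carry the upstroke of the action potential. All 8 alpha subunits had a fitted value above 0 (median 0.26), and 0 were called or below an unadjusted p of 0.05. Without HET 7, 5 of 8 lay above 0, and the median was 0.14 without WT 16 and 0.43 without WT 5. *Scn3a*, the alpha subunit of the embryonic brain, had the highest level of the class at 9.34 ± 1.59 CPM per kilobase in WT and 9.45 ± 1.54 in HET, and its log2 fold change of 0.02 (SE 0.14) turned to -0.09 without HET 7. *Scn2a* followed at 3.98 ± 0.767 and 4.49 ± 1.23 CPM per kilobase, and *Scn8a* at 3.34 ± 0.707 and 3.94 ± 0.625, which overlap within their SD. *Scn1a*, the main alpha subunit of mature inhibitory neurons, was at 1.06 ± 0.178 and 1.15 ± 0.249. The largest fitted value of the class, 0.86 for the sodium-sensing *Scn7a*, rested on 3 to 21 counts per embryo. Among the 4 beta subunits, *Scn3b* was at 32.5 ± 3.62 CPM per kilobase in WT and 34.6 ± 5.56 in HET, and all 4 lay above 0 (median 0.18).

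Calcium channels couple voltage to calcium entry and transmitter release. The 9 tested alpha1 subunits all lay above 0, between 0.19 and 0.44 (median 0.26), with none at an unadjusted p under 0.05. The tenth, *Cacna1f*, had too few counts for a test. *Cacna1h*, a low-threshold T-type subunit, was highest at 10.5 ± 1.89 CPM per kilobase in WT and 11.9 ± 2.4 in HET, and its log2 fold change of 0.19 (SE 0.16) was -0.11 in the embryos with low *Ttr*. *Cacna1e* at 7.63 ± 1.65 and 9.22 ± 0.949 and the T-type *Cacna1g* at 7.59 ± 2.34 and 9.04 ± 0.469 were not separable. In WT 16 the mean log2 CPM of the alpha1 class was 4.36, while the other WT embryos lay between 4.95 and 5.04. The class median was 0.15 without WT 16, with 9 of 9 above 0, and 0.10 in the embryos with low *Ttr*, with 7 of 9 above 0.

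The calcium channel genes with the highest levels were auxiliary subunits and related proteins. *Cacnb3*, a cytoplasmic beta subunit, had the highest level per kilobase of all members, at 36.9 ± 2.06 CPM per kilobase in WT and 41.4 ± 5.45 in HET (log2 fold change 0.17, SE 0.09). *Cacng4* came second at 34.0 ± 3.93 and 39.8 ± 4.12. *Cacna2d1*, which carries alpha1 subunits to the membrane, was at 11.0 ± 0.707 and 11.8 ± 0.452 (log2 fold change 0.11, SE 0.06). The beta class had 4 of 4 genes above 0 (median 0.11), the alpha2delta class 3 of 4 (median 0.07) and the gamma class 5 of 7 (median 0.15). The gamma median was -0.02 without HET 7, 0.07 without WT 5 and 0.29 without HET 5, the beta median 0.05 without HET 7 and 0.18 without HET 5, and the alpha2delta median 0.04 without WT 16 and 0.12 without WT 15.

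The HCN channels, which pass the pacemaker current, had 4 of 4 genes above 0 with a median of 0.26, which was 0.40 without WT 15. *Hcn3* was at 6.52 ± 0.801 CPM per kilobase in WT and 7.33 ± 0.825 in HET, and *Hcn4* at 6.07 ± 0.815 and 6.96 ± 1.43. The pair did not differ beyond its spread. *Hcn3* had a log2 fold change of 0.17 (SE 0.11), which was -0.02 in the embryos with low *Ttr*, and exons of the opposite-strand *Pklr* cover 17.1% of its own. The largest value of the class was 0.48 (SE 0.24) for *Hcn2*, at 2.85 to 5.11 CPM in WT and 3.14 to 7.29 in HET.

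Voltage-gated potassium channels repolarize the cell. Of 23 alpha and modifier subunits, 18 lay above 0 (median 0.15), and 12 did so without HET 7 (median 0.03), while the median was 0.24 without WT 15 or HET 6, 0.26 without WT 41 and 0.32 without HET 5. *Kcnd3*, of the A-type current, had the highest level at 7.42 ± 1.25 CPM per kilobase in WT and 8.11 ± 1.11 in HET (log2 fold change 0.13, SE 0.13). The fitted range ran from -0.40 for *Kcnc2*, of fast-spiking cells, to 0.92 for the modifier *Kcng2*, which was at 0.309 to 0.840 CPM in WT and 0.346 to 1.61 in HET. Of the *Kcnq* genes, 3 of 5 lay above 0 (median 0.10). Without HET 7 the median was -0.06, with 2 of 5 above 0. It was 0.02 without WT 16, and 0.04 without HET 24 and in the embryos with low *Ttr*. Of the 8 *Kcnh* genes 6 lay above 0 (median 0.11, and 0.06 without WT 16 or HET 7), led by the ERG channel gene *Kcnh2* at 2.78 ± 0.414 and 2.92 ± 0.531.

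The Kv auxiliary class had a median of -0.05 with 5 of 12 above 0, and the sign turned with the choroid plexus covariate (0.12, 7 of 12 above 0), in the embryos with low *Ttr* (0.11, 7 of 12), without WT 5 (0.01) and under the stricter filter (0.02). Without *Kcne2* the class mean was 2.39 ± 0.11 log2 CPM in WT and 2.35 ± 0.08 in HET, and the median was -0.01. *Kcnip3*, a calcium-binding partner of the A-type channels, was at 14.2 ± 1.19 CPM per kilobase in WT and 15.5 ± 1.54 in HET. *Kcne1l* had a similar WT level of 14.4 ± 0.867 but 9.93 ± 1.33 in HET.

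Among the calcium- and sodium-activated potassium channels 7 of 10 lay above 0 (median 0.09, and 0.01 without WT 16 with 5 of 10 above 0), and the small-conductance channel gene *Kcnn1* had the highest level at 4.05 ± 0.594 CPM per kilobase in WT and 4.29 ± 0.354 in HET. Among the inward rectifiers 8 of 14 lay above 0 (median 0.08), but 6 of 14 did without HET 7 (median -0.09), and the median was -0.01 under the stricter filter and 0.03 without WT 5. *Kcnj10* had the highest level of these in WT, at 10.2 ± 1.88 CPM per kilobase, and in HET, at 4.59 ± 0.922, its mean was under those of *Kcnj3*, of the G protein-gated channels, at 6.13 ± 0.665, and of *Kcnj11*, of the ATP-sensitive channels, at 5.82 ± 0.394, and both overlapped with it within their SD. *Kcnj16*, a glial inward rectifier that pairs with *Kcnj10*, was a low-level gene at 0.240 to 0.707 CPM in WT and 0.519 to 0.888 in HET. Per kilobase it was at 0.112 ± 0.0478 CPM in WT and 0.169 ± 0.0413 in HET, rank 113 of the 124 members. Its log2 fold change of 0.57 (SE 0.31, adjusted p = 0.911) was opposite in sign to that of *Kcnj10* but was not called. *Kcnj8*, the ATP-sensitive channel gene of pericytes, was at 5.41 to 8.02 CPM in WT and 5.93 to 7.95 in HET (log2 fold change -0.01, SE 0.14). The mural marker list around it had 1 of 6 genes above 0 and summed to 124 to 162 CPM in WT and 131 to 138 in HET.

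The background potassium channels of the K2P class had 5 of 9 genes above 0 (median 0.05), and the median was -0.08 without HET 7, with 4 of 9 above 0, and -0.03 without WT 5. *Kcnk1* was highest, at 9.84 ± 3.3 CPM per kilobase in WT and 10.2 ± 1.93 in HET, and *Kcnk10* and *Kcnk2* at 8.59 ± 0.843 and 8.06 ± 0.422 in WT were within its SD. WT 5 was low in *Kcnk1*, at 10.2 CPM where the remaining WT embryos were at 21.7 to 30.3. The class "other" held *Kcnrg*, a soluble regulator of channel assembly, and *Kcnq1ot1*, a long noncoding RNA that is antisense to *Kcnq1* and forms no channel. *Kcnq1ot1* was at 13.3 to 30.9 CPM in WT and 20.7 to 27.5 in HET.

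**Figure D3:**
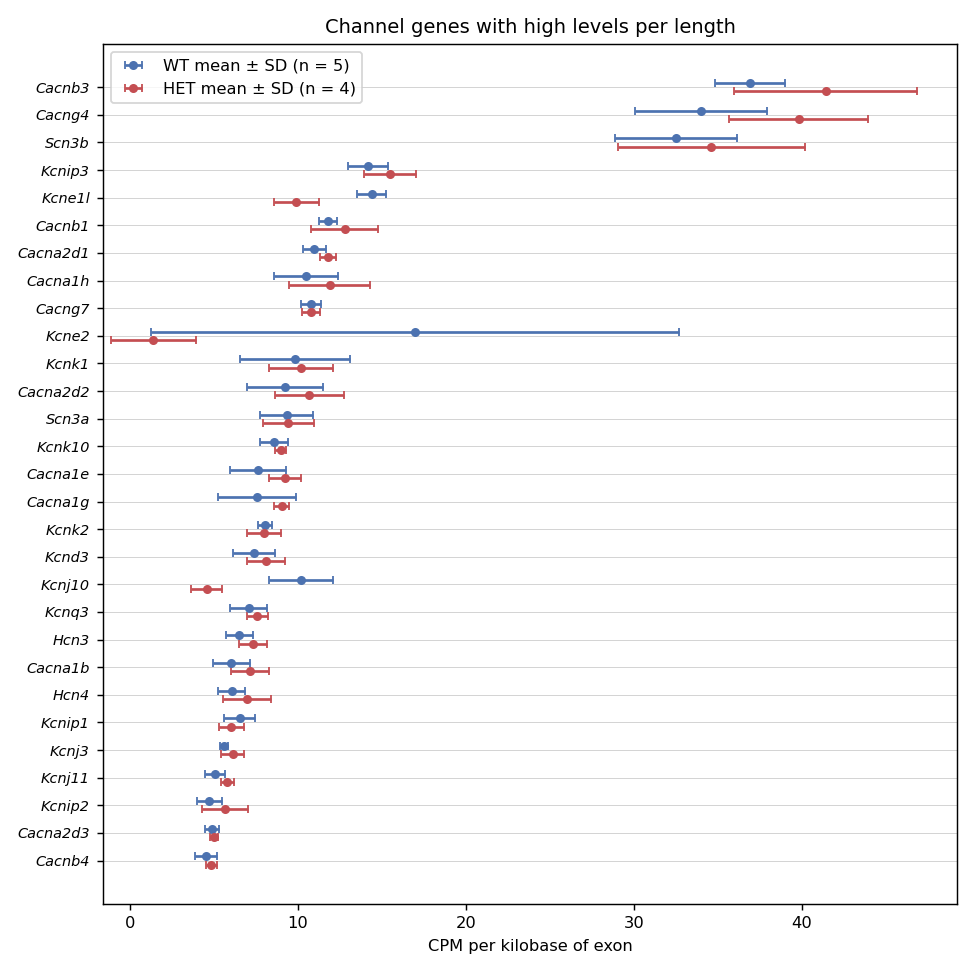
Level of channel genes among the highest in the mean of all embryos, not every one shown, given as CPM per kilobase of exon (x axis), for WT (n = 5) and HET (n = 4), with points at the mean and bars at the SD. *Cacnb3*, *Cacng4* and *Scn3b* stood above 30 CPM per kilobase in both groups, while for *Kcnj10* and *Kcne1l* the HET bar lay below the WT bar without overlap. The WT bar of *Kcne2* spans 17.0 ± 15.7.

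In level per kilobase, 11 members were over 10 CPM per kilobase, 68 were between 1 and 10 and 45 were at 1 or less. The first 3 in that order, *Cacnb3*, *Cacng4* and *Scn3b*, overlapped within their SD in both groups.

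The embryos differed from each other in the channel genes within both groups. The median deviation of the members from the mean of all 9 embryos, on the log2 scale, was -0.11 in WT 5, 0.11 in WT 15, -0.25 in WT 16, 0.06 in WT 41 and -0.05 in WT 43, and -0.14 in HET 5, 0.02 in HET 6, 0.28 in HET 7 and 0.14 in HET 24. HET 7 was the highest and WT 16 the lowest embryo, and each group held embryos on both sides of 0. Of the 124 members, 50 had their highest level in HET 7 and 47 their lowest in WT 16. HET 7 also had the highest sum of the neuronal markers (7102 CPM, range 6096 to 7102) and the lowest sum of the progenitor markers (2249 CPM, range 2249 to 3461). Its sum of the oligodendrocyte lineage markers was the highest as well (110 CPM, range 61.9 to 110). The progenitor sum varied within both groups. It was 3461, 2425, 2779, 2584 and 3165 CPM in WT 5, 15, 16, 41 and 43. In HET 5, 6, 7 and 24 it was 3357, 2948, 2249 and 2536 CPM. The sum of the GABAergic neuron markers also varied within both groups. It was 491, 381, 246, 454 and 268 CPM in WT 5, 15, 16, 41 and 43, and 194, 353, 478 and 362 CPM in HET 5, 6, 7 and 24. In WT 16 longer genes deviated downward over all tested genes (Spearman rho of the deviation against exon length -0.335, a description across genes that share 1 library), whereas rho lay between -0.089 and 0.089 in the other embryos. The channel genes were long, with a median of 4982 exonic bases against 3930 for all tested genes. Their median gene span was 54.5 kb against 19.7 kb. The sodium channel alpha and calcium channel alpha1 classes, in which every tested gene lay above 0, had medians of 11802.5 and 10137 exonic bases. Every tested gene also lay above 0 in the sodium channel beta, HCN and calcium channel beta classes, with shorter medians of 4819, 5136 and 6746. The class "other", also with every gene above 0, had 47458.5. In the alpha2delta class (9099) 3 of 4 lay above 0, and in the *Kcnq* class (7689) 3 of 5. The part of these values in the shift of the channel genes was not tested.

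The members that varied most between embryos were *Kcne2*, *Kcnj13*, *Kcns1*, *Scn7a*, *Kcng2* and *Kcnj6*. *Kcns1*, a modifier subunit, was at 0.216 CPM in WT 5 and HET 5 and at 1.26 in WT 41 and 1.18 in HET 7, so its span lay within both groups. *Kcnj6*, of the G protein-gated channels, was at 0.217 CPM in WT 16 and at 1.55 in HET 7.

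**Figure D4:**
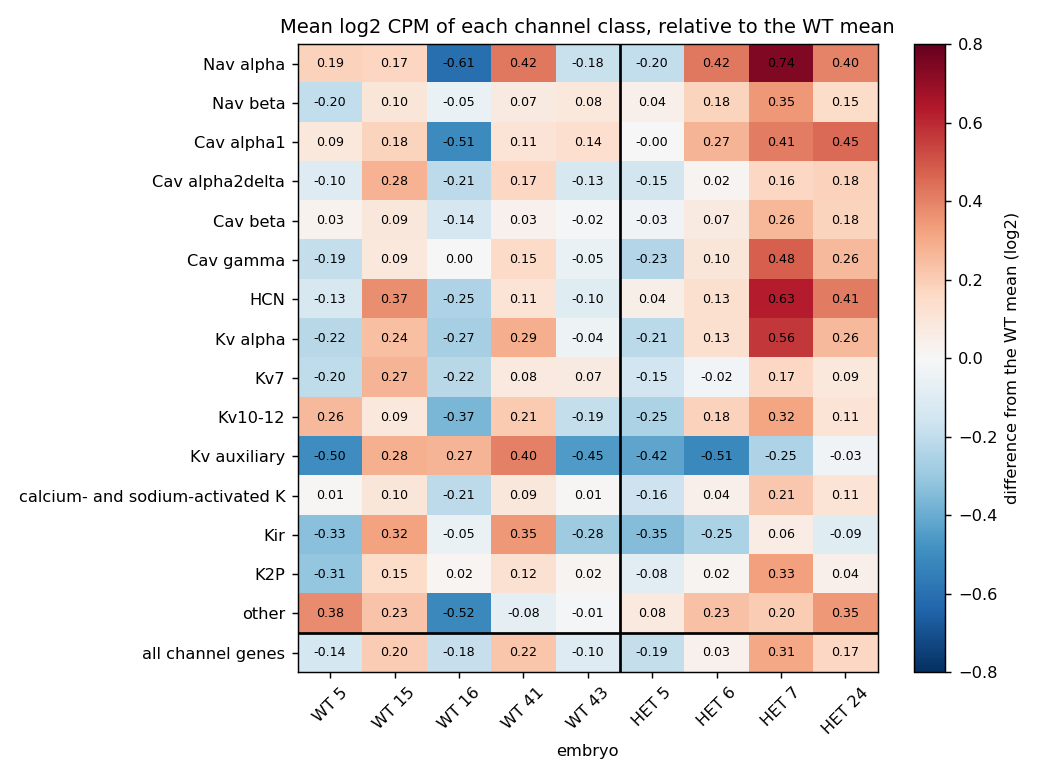
Mean log2 CPM of each channel class in every embryo, shown as the difference from the WT mean (columns, 5 WT and 4 HET, rows, channel classes, with the value in each cell). HET 7 was above 0 in every class but Kv auxiliary and WT 16 was below 0 in most. The Kv auxiliary class, which holds *Kcne2*, was above 0 in WT 15, WT 16 and WT 41 and below 0 in the other embryos.

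Genes that anchor or modify channels without being members, such as ankyrins, intracellular FGFs, the NALCN leak channel complex, chloride channels and TRPC channels, were read as a list of 44. Of 37 tested, edgeR called 0, and 26 lay above 0 (48.5% of all genes did) with a median log2 fold change of 0.07. At an unadjusted p under 0.05, 1 was higher and 0 were lower, where the background is 2.32% and 3.09% of genes. That one was *Unc80*, which holds the NALCN complex together, at 4.98 to 9.33 CPM in WT and 6.90 to 15.6 in HET (log2 fold change 0.54, SE 0.24, adjusted p = 0.911).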

How the data were processed

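Forebrain RNA of 5 WT and 4 HET embryos was captured by poly(A), prepared with a TruSeq kit and sequenced on an Illumina HiSeq instrument, with 1 read of each pair used. The authors aligned reads with STAR 2.7.9a to GRCm38.p6 and counted them per gene with featureCounts, and the deposited unit is the raw read count per gene, not normalized. The handling of strand and of multiply aligned reads is not given in the sources used here. 55141 of the 55401 gene identifiers, and all 124 channel genes, were in the GENCODE annotation of the same build used for exon length and coordinates.

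Samples were grouped by genotype label, and no pair of columns was identical. Genes were filtered with filterByExpr (minimum count 10), scaled by TMM and tested, HET against WT, with edgeR 4.0.16 (quasi-likelihood) in R 4.3.3 over 17818 genes with Benjamini-Hochberg adjustment at 0.05. The common biological coefficient of variation was 16.8%. The SE is the log2 fold change divided by the root of F. Log2 CPM used a prior count of 1. The script was tested on simulated counts. Alternatives were DESeq2 1.42.0, limma 3.58.1 (voom), RLE and upper-quartile scaling, no filter, a stricter filter, a choroid plexus score as covariate, the embryos with *Ttr* under 100 CPM, and each embryo left out in turn. Counting error only is covered by the depth. Members, classes and lists were chosen with earlier results of these data known. The genes named were those past the adjusted threshold, the 6 higher and 6 lower with the smallest p, the highest per kilobase in each class, the 6 most variable, and *Kcnj10*, *Kcnj13*, *Kcne2* and *Kcnj8*. Other genes named were chosen after their values were seen, and some members are counted but not reported by name here.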

Additional observations from a re-analysis of the deposited data

Results flagged for a closer look

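In 92 groups of embryos (the named genes and the class means, in WT and HET), 8 had 1 embryo that stood apart from the rest of its group by Dixon's criterion. Chance gives about 1 in 20 for independent groups. That rate does not apply directly here, since some genes were named for their variation between embryos and the groups share libraries. *Kcnj10* was at 17.3 CPM in HET 24, against 27.3 in the other HET embryos. *Kcnj13* was at 1.02 CPM and *Kcne2* at 9.15 CPM in HET 24, against at most 0.151 and 0.413 in the other HET embryos, and *Ttr* was also highest there among HET embryos. *Cacnb3* was at 133 CPM in WT 41 against 150 to 153 in the other WT embryos. In WT 16, *Kcnj6* was at 0.217 CPM against 0.729 to 0.882, *Kcnrg* at 1.85 CPM against 2.61 to 2.87, and the calcium channel alpha1 class at a mean of 4.36 log2 CPM against 4.95 to 5.04. The K2P class was at a mean of 2.18 log2 CPM in WT 5 against 2.51 to 2.64 in the other WT embryos.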

How the results depend on the processing

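*Kcnj10* was called under DESeq2, limma-voom, both other scalings, both other filters, the choroid plexus covariate and the embryos with low *Ttr*. DESeq2 called 1 channel gene higher and 2 lower, against 0 and 1 by edgeR. Leaving out 1 embryo gave 0 to 1 lower calls. At an unadjusted p under 0.05 the higher genes numbered 14 with the covariate and 3 to 22 with an embryo left out (17 without WT 15, 5 without WT 16, 22 without HET 5, 3 without HET 7, 5 without HET 24), and the lower genes 3 in the embryos with low *Ttr* and 2 to 8 with an embryo left out (2 without WT 15). The share of all genes past that p is not given for these fits, so the counts show nothing particular to the channel genes. The cause was not tested. Signs turned for *Cacna1h* (-0.11), *Hcn3* (-0.02), *Kcne2* (0.28), *Kcnj8* (0.23) and *Kcnn1* (-0.10) in the embryos with low *Ttr*, and for *Kcne2* (0.44), *Kcnj8* (0.13) and *Kcnn1* (-0.02) with the covariate. With an embryo left out, the log2 fold changes ran from -0.04 to 0.17 for *Kcnh2*, -0.10 to 0.06 for *Kcnj8*, -0.13 to 0.20 for *Kcnk1*, -0.13 to 0.66 for *Kcns1*, -0.09 to 0.10 for *Scn3a* and -0.00 to 0.18 for *Scn3b*. The labels name no pairs or litters, so no paired analysis was possible. Members with few counts carry larger errors, such as an SE of 0.49 for *Scn7a* (3 to 21 counts per embryo) against 0.06 for *Cacna2d1* (5660 to 8770).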
